A study of Homo sapiens with 4 samples.

Results

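The genes described are 10 subunits of the TIP60 acetyltransferase complex other than BRD8, taken by symbol from the 33538 genes of the matrix: KAT5, TRRAP, EP400, EPC1, EPC2, MBTD1, ING3, DMAP1, MRGBP and YEATS4. TIP60, also called NuA4, is a chromatin complex of mammalian cells. Its catalytic subunit KAT5 acetylates histones H4 and H2A. The ATPase of the complex, EP400, acts on nucleosomes and their variant histone H2A.Z. Other subunits recruit the complex through transcription factors or histone marks. The complex serves transcription, including that driven by MYC and by nuclear receptors, and repair of broken DNA.

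The study treated BT474, an established line from a human breast ductal carcinoma that is estrogen receptor positive and carries an amplified HER2 gene, and read single cells by 3′ RNA sequencing with unique molecular identifiers (UMIs). The groups were cells given 100 nM fulvestrant with 200 nM neratinib, 200 nM neratinib alone, 100 nM fulvestrant alone, or DMSO, the vehicle, each for 4 h. Fulvestrant blocks and degrades the estrogen receptor, and neratinib irreversibly inhibits the EGFR, HER2 and HER4 kinases. Each group was 1 library of a single cell line, so no difference has a replicate check, no p-value is given, and every interval covers counting error only.

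Cells were barcodes with at least 5000 UMIs and at least 500 genes. The labels state a target of 3000 cells per sample. There were 3876 cells with both drugs, 3507 with neratinib, 3485 with fulvestrant and 4301 with DMSO, which held 91091724, 82967775, 83642623 and 102504452 UMIs in that order. Levels are in CPM, the UMIs of a gene summed over the cells of a library and scaled to a total of 1000000 UMIs. The 10 luminal epithelial markers were all detected. They summed to 6472 CPM with both drugs, 7238 CPM with neratinib, 9699 CPM with fulvestrant and 10199 CPM with DMSO. In the neratinib contrasts defined below, 6 of 10 were past the lower threshold, beside 33% and 31.8% of all genes, and 0 past the upper. CDH1 went the other way, at 180, 182, 164 and 156 CPM in that order of libraries, as did ESR1, at 12.7, 18.2, 11.9 and 14.6 CPM. With median-of-ratios scaling in place of totals, 4 of 10 markers were lower in each neratinib contrast, beside 19.2% and 19.3% of all genes. With that scaling 2 markers were higher for neratinib against DMSO and 0 for both drugs against fulvestrant, beside 17.1% and 17.6% of all genes. Fibroblast markers summed to between 10.2 and 12.4 CPM, endothelial markers to between 1.78 and 2.49 CPM, and immune markers to between 0.38 and 0.494 CPM. A single gene held most of each sum: COL1A1 (10.2 to 12.4 CPM), VWF (1.72 to 2.44 CPM) and LYZ (0.351 to 0.494 CPM). The ERK target DUSP6 was lower with neratinib (1.54 CPM, against 12.99 CPM with DMSO) and MYC was lower with fulvestrant (15.6 CPM, against 75.8 CPM with DMSO). The neratinib libraries also differed in mitochondrial share. The median share of a cell was 21.1% with both drugs, 21.1% with neratinib, 16.7% with fulvestrant and 16.2% with DMSO. These medians lie close to 20%, and 37.7% of cells with both drugs and 37.5% with neratinib had under 20% mitochondrial UMIs. With fulvestrant 82.5% did, and with DMSO 85.4%. The cause of this difference was not tested.

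Because MBTD1, EPC2 and MRGBP carry the differences described here, the 250 bases before their annotated starts are shown, from RefSeq on GRCh38.p14 and written 5′ to 3′ along each gene's strand. Capitals mark CCAAT boxes (CCAAT, in MBTD1) and GC boxes (GGGCGGG or its reverse complement CCCGCCC, in EPC2 and MRGBP).
MBTD1 (chr17:51260050-51260299, minus strand): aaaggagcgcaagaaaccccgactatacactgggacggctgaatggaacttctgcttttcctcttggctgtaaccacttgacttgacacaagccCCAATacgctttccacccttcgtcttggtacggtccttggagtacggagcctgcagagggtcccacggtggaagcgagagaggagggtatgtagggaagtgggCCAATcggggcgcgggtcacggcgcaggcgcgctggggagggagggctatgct
EPC2 (chr2:148644501-148644750, plus strand): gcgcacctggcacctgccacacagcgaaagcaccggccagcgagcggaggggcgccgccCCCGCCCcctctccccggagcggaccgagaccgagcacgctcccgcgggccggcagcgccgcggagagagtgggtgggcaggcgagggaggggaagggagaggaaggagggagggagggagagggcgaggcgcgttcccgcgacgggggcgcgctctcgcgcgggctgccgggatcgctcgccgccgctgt
MRGBP (chr20:62796223-62796472, plus strand): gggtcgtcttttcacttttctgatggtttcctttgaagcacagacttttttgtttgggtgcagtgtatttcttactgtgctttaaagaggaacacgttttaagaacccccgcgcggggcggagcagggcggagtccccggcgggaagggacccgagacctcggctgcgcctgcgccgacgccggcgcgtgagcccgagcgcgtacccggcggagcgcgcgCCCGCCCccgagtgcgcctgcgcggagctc
The window searched ran on to 50 bases after the start, and RefSeq windows were matched for 8 of the 10 subunits. Within it MBTD1 held 2 CCAAT boxes, EPC2 held 2 GC boxes, 1 of them after the start, and MRGBP held 1 GC box. These are common letters: 34.6% of 35116 promoters held a CCAAT box and 33.1% a GC box on either strand. Bases after the annotated start were found in a GENCODE v29 transcript of the gene for MBTD1 and MRGBP, but not for EPC2. The forkhead motif GTAAACA, searched on both strands and held by 3.42% of promoters, was in none of the 8 windows, and the estrogen response element, in 0.057% of promoters, was in none either. KAT5 and DMAP1 each held 2 matches to the ETS motif CCGGAAGT, which 4.14% of promoters held. The MBTD1 window overlapped that of UTP18, a gene read in the opposite direction from the same stretch of chromosome 17.

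The first question was what neratinib did to the subunits, read in a pair of contrasts that share no library: neratinib against DMSO, and both drugs against fulvestrant. MBTD1 and EPC2 were higher in both contrasts, MRGBP was lower in both, and the other 7 subunits, the catalytic one included, lay within the threshold or at its edge. A gene was counted as higher or lower at a log2 ratio of at least 0.32 in size (25% higher, or lower by the same factor), among 9166 genes with a mean of at least 5 CPM over the libraries, which all 10 subunits reached. Against DMSO, neratinib gave 2 of 10 subunits higher, beside 9.66% of all genes, and 2 of 10 lower, beside 33% of all genes. Both drugs against fulvestrant gave 2 of 10 higher, beside 9.83% of all genes, and 1 of 10 lower, beside 31.8%. The median log2 ratio of the subunits was 0.03 and -0.05 in these contrasts, and that of all genes compared was -0.18 and -0.16. The scaling moved that split: with median-of-ratios scaling in place of totals, the median of all genes was -0.01 in both contrasts, and 17.1% of genes were higher and 19.2% lower with neratinib against DMSO.

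**Figure D1:**
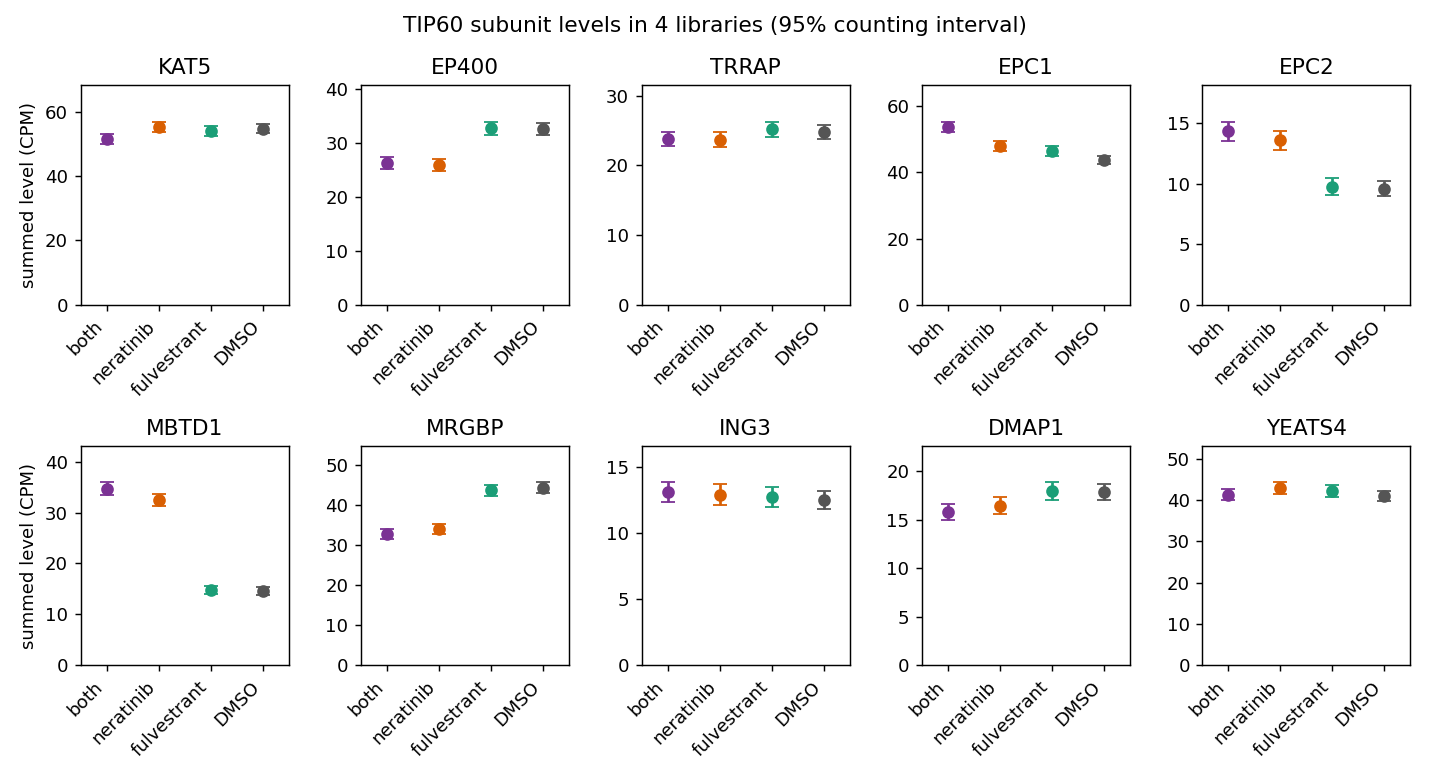
Summed level (CPM, linear axis from 0) of each of the 10 subunits in the libraries treated with both drugs, neratinib, fulvestrant and DMSO; points are 1 library each and bars are 95% counting intervals. MBTD1 and EPC2 sit higher and MRGBP and EP400 lower in both neratinib libraries than in the fulvestrant and DMSO libraries.

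KAT5, the acetyltransferase itself, had 4693 UMIs (51.5 CPM) with both drugs, 4586 (55.3 CPM) with neratinib, 4514 (54.0 CPM) with fulvestrant and 5599 (54.6 CPM) with DMSO. These 4 levels span little, and the library with both drugs is the lowest. Its log2 ratio was 0.02 [-0.04, 0.07] for neratinib against DMSO and -0.07 [-0.13, -0.01] for both drugs against fulvestrant, and its sign turned with the scaling, between -0.01 and 0.20 for the first over 9 other scalings and cell filters.

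EP400, the ATPase, and TRRAP, the large kinase-like subunit that binds activators such as MYC, are the complex's biggest proteins. EP400 stood at 26.2 CPM with both drugs, 25.8 CPM with neratinib, 32.6 CPM with fulvestrant and 32.5 CPM with DMSO. Both neratinib libraries lay below both others for EP400, by a log2 ratio of -0.32 [-0.40, -0.24] against fulvestrant and -0.33 [-0.41, -0.26] against DMSO. The first of these was just short of the threshold and the second just past it, and with median-of-ratios scaling both were -0.17. TRRAP was measured at 23.8 CPM with both drugs, 23.7 CPM with neratinib, 25.2 CPM with fulvestrant and 24.8 CPM with DMSO, and its intervals included 0 in both neratinib contrasts. A pseudogene, EP400P1, may share reads with EP400.

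EPC1 and EPC2 are paralogous scaffolds that hold KAT5 to the rest of the complex. EPC2 had 1304 UMIs (14.3 CPM) with both drugs, 1125 (13.6 CPM) with neratinib, 814 (9.73 CPM) with fulvestrant and 983 (9.59 CPM) with DMSO. Both neratinib libraries were above both others. The ratio was 1.41-fold, log2 0.50 [0.37, 0.62], for neratinib against DMSO and 1.47-fold, log2 0.56 [0.43, 0.68], for both drugs against fulvestrant. EPC1 was at 53.8 CPM with both drugs, 48.1 CPM with neratinib, 46.4 CPM with fulvestrant and 43.8 CPM with DMSO. Its levels were ordered, with each neratinib library above both libraries without neratinib, but its log2 ratios of 0.13 [0.07, 0.20] and 0.22 [0.16, 0.28] were short of the threshold. With median-of-ratios scaling they were 0.30 and 0.37, the second past it. EPC1 was also the subunit with the greatest log2 ratio for fulvestrant, at 0.08 [0.02, 0.14] over DMSO and, added to neratinib, 0.16 [0.10, 0.22], so that both drugs against DMSO came to 0.30 [0.24, 0.36], or 0.45 with median-of-ratios scaling, past the threshold.

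MBTD1 reads methylated histone H4 through its MBT repeats and joins the complex through an EPC scaffold. It had 3160 UMIs (34.7 CPM) with both drugs, 2692 (32.4 CPM) with neratinib, 1233 (14.7 CPM) with fulvestrant and 1501 (14.6 CPM) with DMSO. Both neratinib libraries were far above both others, and the fulvestrant and DMSO libraries could not be told apart by counting error. Neratinib against DMSO gave 2.22-fold, log2 1.15 [1.06, 1.24], and both drugs against fulvestrant gave 2.35-fold, log2 1.23 [1.14, 1.33]. Counted from the highest ratio, MBTD1 was at rank 79 of 9166 genes in the first contrast and rank 61 in the second. BRD8, the bromodomain subunit named in the series title, stood at rank 52 and rank 47 with log2 ratios of 1.34 and 1.40.

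The other subunits that read or bind histones and their partners differed less. MRGBP, which binds the chromodomain subunit MORF4L1, had 2981 UMIs (32.7 CPM) with both drugs, 2816 (33.9 CPM) with neratinib, 3649 (43.6 CPM) with fulvestrant and 4545 (44.3 CPM) with DMSO. Both neratinib libraries were below both others, by 1.31-fold for neratinib against DMSO, log2 -0.39 [-0.45, -0.32], and by 1.33-fold for both drugs against fulvestrant, log2 -0.41 [-0.48, -0.35]. Of all genes compared, 26.9% and 23.7% had a lower ratio in these contrasts, so MRGBP lay inside the bulk of genes, at -0.21 and -0.25 from the median gene. With median-of-ratios scaling MRGBP gave -0.22 and -0.26, short of the threshold. ING3, whose PHD finger binds methylated histone H3, had 13.1 CPM with both drugs, 12.9 CPM with neratinib, 12.7 CPM with fulvestrant and 12.5 CPM with DMSO. DMAP1, which is shared with the SRCAP remodeler, had 15.7 CPM with both drugs, 16.4 CPM with neratinib, 17.9 CPM with fulvestrant and 17.8 CPM with DMSO. YEATS4, a reader of acylated histone H3 that is also shared with SRCAP, had 41.3 CPM with both drugs, 42.8 CPM with neratinib, 42.2 CPM with fulvestrant and 40.9 CPM with DMSO. Of these 3, only DMAP1 had intervals off 0 in both neratinib contrasts, at log2 -0.12 [-0.22, -0.02] and -0.19 [-0.29, -0.08], and with median-of-ratios scaling the first was 0.046, or 0.059 in cells with under 20% mitochondrial UMIs.

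**Figure D2:**
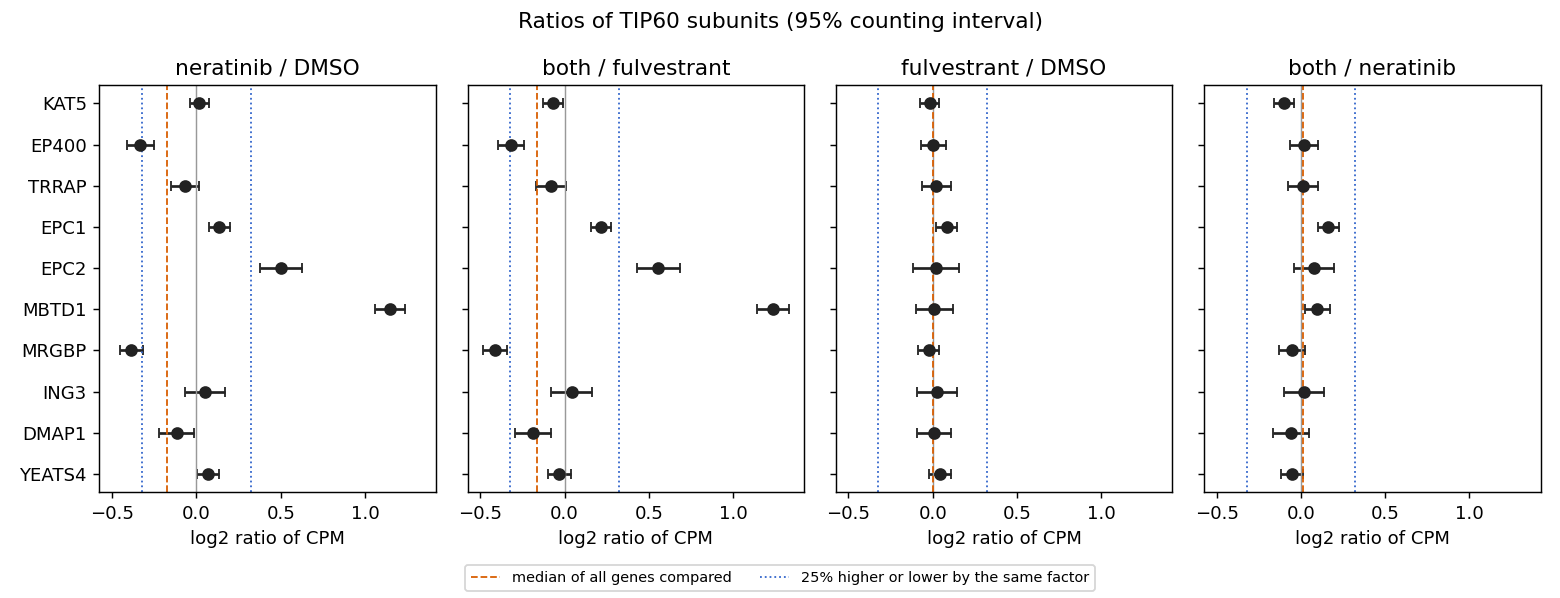
Log2 ratio of CPM (x axis) of each subunit in the 4 contrasts named above the panels; points are ratios of 1 library over 1 library, bars are 95% counting intervals, the dashed line is the median of all genes compared and dotted lines mark the threshold, 25% higher or lower by the same factor. MBTD1 and EPC2 lie beyond the upper dotted line in both neratinib panels, and in both fulvestrant panels all 10 subunits lie inside the dotted lines.

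**Figure D3:**
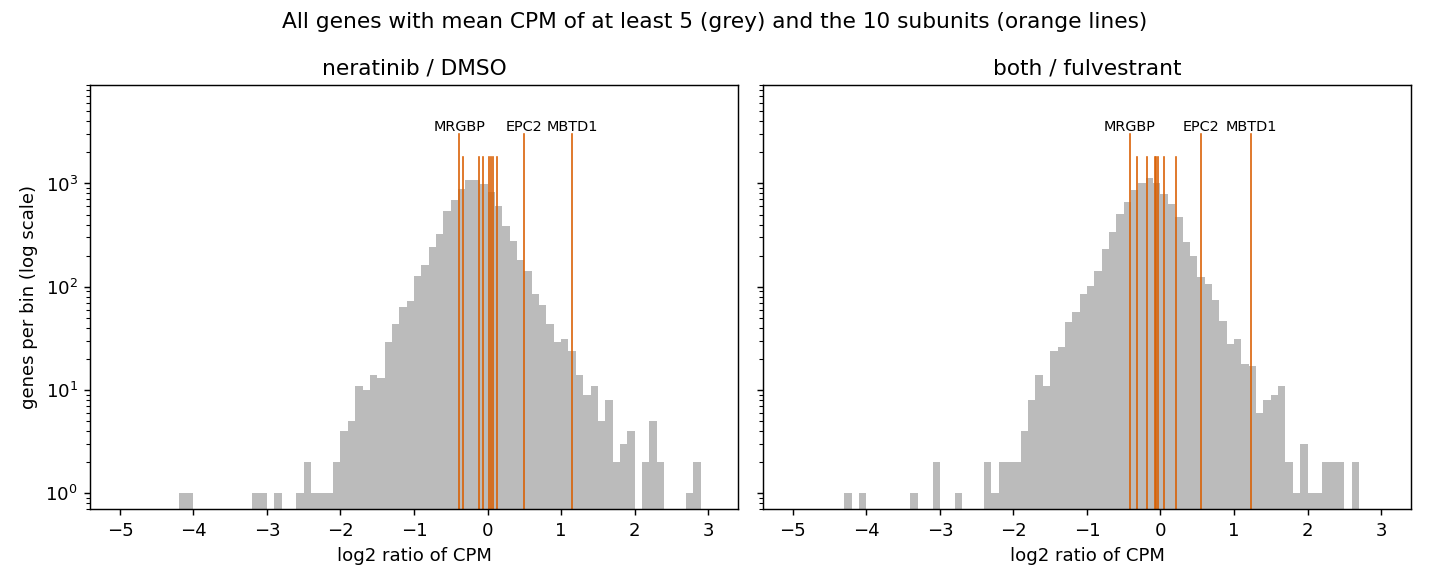
Histogram of the log2 ratio of CPM (x axis, bins of equal width; y axis on a log scale) over 9166 genes in grey for neratinib over DMSO and both drugs over fulvestrant, with the 10 subunits as orange lines whose height carries no value. MBTD1 stands in the upper tail, EPC2 on the upper shoulder, and MRGBP within the bulk.

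Fulvestrant was read in the other pair of contrasts that share no library, fulvestrant against DMSO and both drugs against neratinib. Past the threshold there were 0 of 10 subunits in either direction in both. Few genes were past it: 0.36% were higher and 1.2% lower than with DMSO, and adding fulvestrant to neratinib gave 0.404% higher and 1.32% lower. The subunits' log2 ratios ran from -0.02 for MRGBP to 0.08 for EPC1 in the first and from -0.10 for KAT5 to 0.16 for EPC1 in the second. Both drugs against DMSO gave 2 of 10 subunits higher, beside 10.6% of all genes, and 1 of 10 lower, beside 33.1%. The higher ones were again MBTD1, at 1.24 [1.15, 1.33], and EPC2, at 0.58 [0.46, 0.70], and the lower one was MRGBP, at -0.44 [-0.51, -0.37].

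The departure from additivity, the log2 level with both drugs minus that with each drug plus that with DMSO, stayed between -0.10 and 0.09 for the subunits, beside a median of 0.01 over all genes compared. Its interval lay off 0 for KAT5, at -0.08 [-0.17, -0.00], and YEATS4, at -0.10 [-0.19, -0.01]. For MBTD1 it was 0.09 [-0.04, 0.22], and for EPC2 0.06 [-0.12, 0.23].

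The subunits were also read as the share of cells with a UMI. After each cell was thinned to 10000 UMIs, MBTD1 was detected in 29.9% of cells with both drugs (exact 95% interval 28.4 to 31.4, 3671 cells), 27.4% with neratinib (25.8 to 28.9, 3316 cells), 14.0% with fulvestrant (12.9 to 15.3, 3286 cells) and 13.6% with DMSO (12.5 to 14.7, 4047 cells). A Poisson count of the same mean would give 30.3% with both drugs, 27.6% with neratinib, 14.0% with fulvestrant and 13.7% with DMSO. The thinned shares thus followed the mean level and are no separate measure of how many cells express MBTD1. Without thinning the shares were 53.3%, 50.7%, 29.1% and 28.6% in the same order, and thinning left out 205, 191, 199 and 254 shallower cells. EPC2 was detected in 13.2%, 13.1%, 8.98% and 8.94% of thinned cells in that order of libraries. MRGBP was detected in 27.9% with both drugs, 28.5% with neratinib, 32.3% with fulvestrant and 35.2% with DMSO. No cell type that lacks these genes is at hand in a single line. In barcodes with 1 to 100 UMIs, which hold free RNA, MBTD1 was at 37.2 CPM with both drugs, 44.1 CPM with neratinib, 17.4 CPM with fulvestrant and 19.0 CPM with DMSO, and its part in the shares was not tested.

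The mean number of the 10 subunits detected in a thinned cell was 2.51 with both drugs, 2.48 with neratinib, 2.40 with fulvestrant and 2.43 with DMSO.

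Cells were sorted into cell cycle classes from phase gene lists that hold none of the subunits. Among cells with both drugs 58.3% were G1, 17.4% S and 24.4% G2M; with neratinib 56.7%, 15.3% and 27.9%; with fulvestrant 54.2%, 22.7% and 23.1%; and with DMSO 53.7%, 20.8% and 25.5%. YEATS4 was the subunit that followed the cycle most, and it did so in all 4 libraries. In S cells it had 67.4 CPM with both drugs, 67.0 CPM with neratinib, 61.9 CPM with fulvestrant and 62.6 CPM with DMSO. In G1 cells it had 25.6, 25.8, 26.4 and 26.4 CPM in that order. The log2 ratio of S over G1 was highest with both drugs, at 1.40 [1.28, 1.52], and lowest with fulvestrant, at 1.23 [1.11, 1.35], and ranked within the first 417 of 9166 genes in each library. KAT5 was higher in G2M than in G1 cells by log2 0.27 to 0.30 in the 4 libraries.

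MRGBP was higher in S than in G1 cells with fulvestrant and with DMSO, and not with both drugs or with neratinib. Its S over G1 log2 ratio was -0.25 [-0.39, -0.10] with both drugs, -0.10 [-0.25, 0.06] with neratinib, 0.41 [0.30, 0.53] with fulvestrant and 0.41 [0.30, 0.52] with DMSO. In S cells MRGBP had 28.7 CPM with both drugs, 31.4 CPM with neratinib, 49.0 CPM with fulvestrant and 48.7 CPM with DMSO. In G1 cells it had 34.1, 33.6, 36.8 and 36.7 CPM in that order. Of the 3 phases, the neratinib libraries were furthest below the others in S cells. The neratinib log2 ratio in S cells minus that in G1 cells was -0.51 [-0.70, -0.32] against DMSO and -0.66 [-0.84, -0.48] for both drugs against fulvestrant, beside medians of -0.04 and -0.04 over all genes compared. From the lowest difference, MRGBP was at rank 246 of 9166 genes and rank 87 in these contrasts. In G2M minus G1 cells the differences were -0.41 [-0.56, -0.26] and -0.47 [-0.63, -0.31]. The share of S cells, given above, was lower in both neratinib libraries as well; with equal weight to the phases, MRGBP gave -0.45 and -0.50 over all cells. The same split ran with depth: MRGBP gave -0.44 and -0.48 in cells of 20000 UMIs and over, against -0.19 and -0.20 in cells under 20000. S and G2M cells were the deeper ones, with median UMIs of at least 26795 in each library, against at most 20373 in G1 cells, and phase within a depth class was not tested. Within mitochondrial classes the MRGBP ratios were smaller than over all cells, at -0.31 and -0.35 in cells with under 20% mitochondrial UMIs and -0.18 and -0.30 in cells at 20% or over, so that 1 of the 4 was past the threshold.

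**Figure D4:**
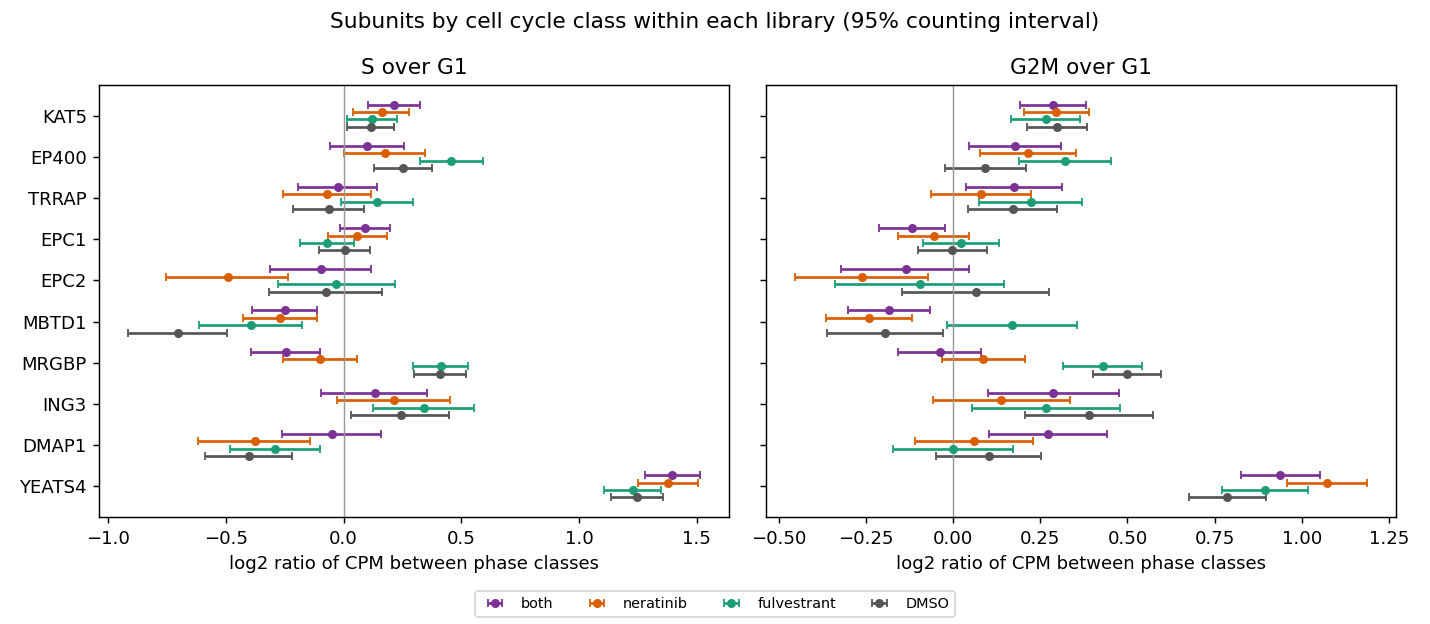
Log2 ratio of CPM (x axis) of S over G1 cells and of G2M over G1 cells for each subunit within each library; points are 1 library each and bars are 95% counting intervals. YEATS4 lies far to the right in every library, and MRGBP lies right of 0 with fulvestrant and DMSO and near or left of 0 with both drugs and with neratinib.

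MBTD1 and EPC2 were higher with neratinib in every class of cells read, with 1 interval that reached 0. The MBTD1 log2 ratio for neratinib against DMSO was 1.07 [0.95, 1.20] in G1, 1.51 [1.28, 1.74] in S and 1.03 [0.86, 1.19] in G2M cells. For both drugs against fulvestrant it was 1.30 [1.16, 1.44] in G1, 1.44 [1.23, 1.67] in S and 0.95 [0.78, 1.12] in G2M cells. In cells with under 20% mitochondrial UMIs, MBTD1 gave 1.16 and 1.24 in the same contrasts, and in cells at 20% or over 1.08 and 1.39. The level of MBTD1 in the neratinib libraries was close on both sides of that line, 35.4 and 34.2 CPM with both drugs and 32.4 and 32.5 CPM with neratinib. EPC2 gave 0.67 [0.49, 0.85] in G1, 0.25 [-0.06, 0.56] in S and 0.34 [0.12, 0.56] in G2M cells for neratinib against DMSO, and 0.58, 0.52 and 0.54 for both drugs against fulvestrant. EP400 gave -0.35 and -0.17 in G1, -0.43 and -0.53 in S and -0.23 and -0.32 in G2M cells, past the threshold in both contrasts in S cells. It was short of the threshold in both mitochondrial classes, at -0.20 and -0.22 under 20% and -0.31 and -0.20 at 20% or over. YEATS4 was also short of it there, at 0.19 [0.11, 0.28] and 0.06 [-0.02, 0.15] under 20%. At 20% or over YEATS4 gave 0.20 [0.05, 0.36] and 0.28 [0.13, 0.45], and in G2M cells 0.25 [0.15, 0.35] and -0.00 [-0.12, 0.11]. The luminal marker sum and the mitochondrial share moved with these results, and beyond the mitochondrial classes their part was not tested.

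**Figure D5:**
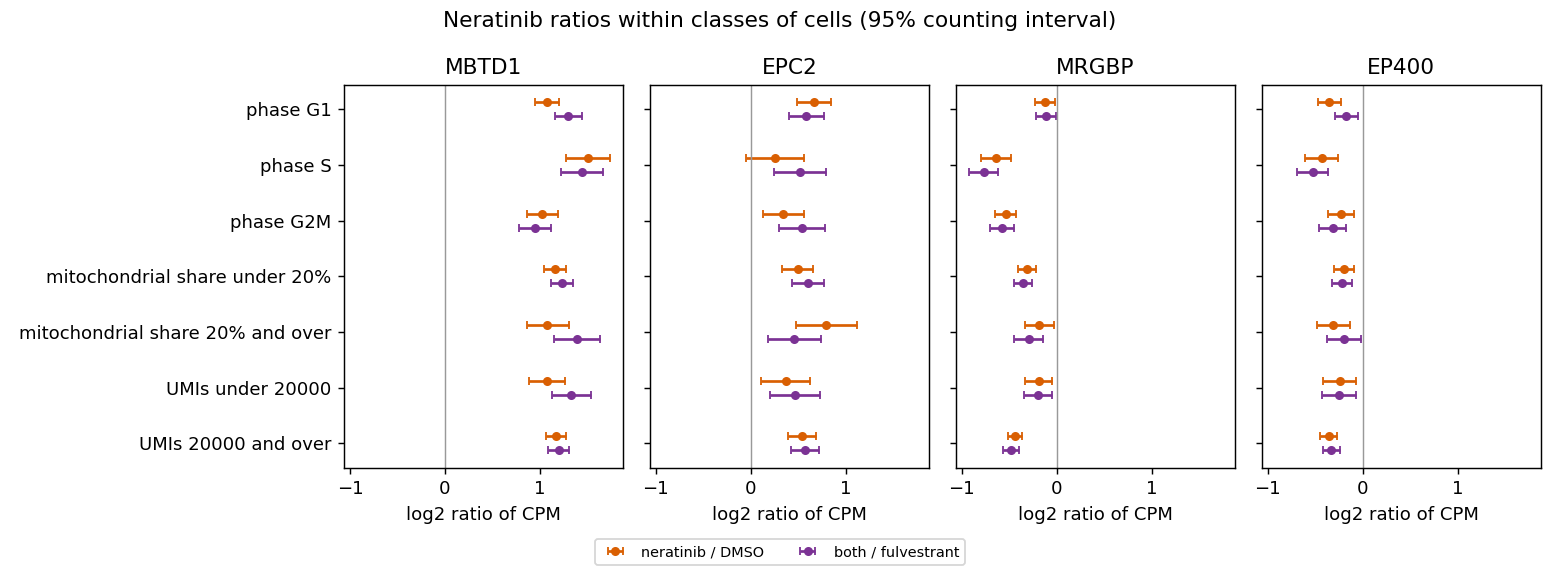
Log2 ratio of CPM (x axis) of MBTD1, EPC2, MRGBP and EP400 for neratinib over DMSO and both drugs over fulvestrant within classes of cells by phase, mitochondrial share and UMI count; points are ratios of 1 library over 1 library and bars are 95% counting intervals. MBTD1 lies near or above 1 in every class. MRGBP is closest to 0 in G1 cells, at -0.128 [-0.233, -0.023] and -0.111 [-0.217, -0.005], and lowest in S cells.

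Genes that behaved most like MBTD1 and EPC2 were found by the distance between their log2 levels against DMSO in the 3 drug libraries, among 4945 genes with a mean of at least 20 CPM. Nearest to MBTD1 were the histone gene HIST3H2A (distance 0.109), the methyltransferase-like METTL7A (0.117) and the sugar phosphate enzyme gene PGM2L1 (0.12). Nearest to EPC2 were WSB1 (0.0228), BROX (0.0294) and CENPC (0.0323), the last a centromere protein. These distances carry no interval. The EPC2 log2 ratio for neratinib against DMSO had a counting interval of 0.37 to 0.62, and that of MBTD1 1.06 to 1.24. The spacing of the listed genes is finer than that, so the counts do not resolve which genes are nearest. UTP18, a ribosome biogenesis factor, was read after its shared promoter window was seen. It had 15.1 CPM with both drugs, 17.3 CPM with neratinib, 32.8 CPM with fulvestrant and 38.5 CPM with DMSO. Across a shared start region MBTD1 was thus higher and UTP18 lower with neratinib, UTP18 by a log2 ratio of -1.15 [-1.24, -1.07] against DMSO and -1.12 [-1.21, -1.02] for both drugs against fulvestrant. Fulvestrant against DMSO gave -0.23 [-0.30, -0.16] for UTP18, beside 0.01 [-0.10, 0.12] for MBTD1.

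The rest of the complex and its relatives give the setting. Of 11 other TIP60 subunits, 1 was higher and 2 were lower in both neratinib contrasts, with medians of -0.21 and -0.24, beside -0.18 and -0.16 over all genes compared. Over all genes 9.66% and 9.83% were higher and 33% and 31.8% lower, shares close to or above those of the list. BRD8 was the higher one, and the ATPase RUVBL1 (-0.48 and -0.41) and actin, ACTB (-0.58 and -0.54), were the lower ones. With median-of-ratios scaling 1 was higher and 1 lower in each of these contrasts. The H2A.Z genes H2AFZ (-0.22 and -0.30) and H2AFV (-0.03 and -0.11) stayed short of the threshold. Of 24 listed genes of the SAGA and ATAC acetyltransferase complexes, 20 were compared, and 0 of these were higher in either contrast. With neratinib against DMSO 9 were lower, beside 33% of all genes, and 8 with both drugs against fulvestrant, beside 31.8%. Those lower in both included WDR5 (-0.63 and -0.72), ATXN7L3 (-0.73 and -0.68), TAF5L (-0.78 and -0.47) and TAF9 (-0.60 and -0.58). The SAGA and ATAC medians were -0.31 and -0.22, and with median-of-ratios scaling -0.15 and -0.07, with 5 genes lower and 1 higher in each contrast, beside 19.2% and 19.3% of all genes lower and 17.1% and 17.6% higher. Of 4 genes tied to SRCAP, 3 were compared and 0 passed in either direction. SRCAP itself was short of a mean of 5 CPM and was not compared. Of 20 other acetyltransferases and their partners, 19 were compared, and 3 were higher in each contrast, beside 9.66% and 9.83% of all genes. Against DMSO 6 of them were lower, beside 33%, and against fulvestrant 2, beside 31.8%. With median-of-ratios scaling 6 were higher, beside 17.1% and 17.6%, and 2 lower, beside 19.2% and 19.3%. ING4, a partner of the KAT7 enzyme, was the greatest at 1.14 and 1.02, and the coactivator CREBBP gave 0.47 and 0.63, and the enzyme gene KAT6B 0.35 and 0.35. BRPF3 (-0.72 and -0.60) and MSL1 (-0.45 and -0.69) were lower in both.

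The families of the reader subunits did not move as one, but they are too small to be told apart from all genes. Of all genes, 9.66% and 9.83% were higher and 33% and 31.8% lower in the neratinib contrasts. Of 10 MBT domain genes, 5 had a mean of at least 5 CPM. Among these MBTD1 was the only one higher in both contrasts, and L3MBTL2 (-0.89 and -0.73) and SFMBT2 (-0.78 and -0.89) were lower. In the ING family of 5, ING4 was higher in both contrasts, and ING3 was not, at 0.05 and 0.04. Of 4 YEATS family genes, 3 had a mean of at least 5 CPM. MLLT1 (-0.68 and -0.66) and YEATS2 (-0.52 and -0.55) were lower in both contrasts and YEATS4 was not, at 0.07 and -0.03. MLLT3, below that mean, had 3.34 CPM with both drugs, 3.03 CPM with neratinib, 1.96 CPM with fulvestrant and 2.28 CPM with DMSO. In both fulvestrant contrasts each of these lists had 0 genes higher and 0 lower, beside 0.36% and 0.404% of all genes higher and 1.2% and 1.32% lower.

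Genes on the opposite strand overlap KAT5, TRRAP, EP400, EPC1 and MRGBP, and the sources used here do not state whether counting used strand. No gene of the matrix overlaps EPC2, MBTD1, ING3, DMAP1 or YEATS4.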

How the data were processed

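The values were raw UMI counts in a matrix the authors deposited, with 33538 genes and 27179520 barcodes, empty droplets included. The submitters' processing notes name Cell Ranger 3.1.0 and hg19; 33456 gene identifiers were found in GENCODE v29. The number ending each barcode was matched to the number opening a sample title. Libraries held 99053622 (both drugs), 89559704 (neratinib), 90336164 (fulvestrant) and 110511222 (DMSO) UMIs, and 23 cell barcodes occurred in more than 1 library. Doublets were not removed. Counts were summed over cells and scaled to CPM; ratios carry exact conditional binomial 95% intervals, shares exact Clopper-Pearson ones, and both cover counting error only. Ratio code was tested on simulated data. Phases were scored with scanpy 1.11.5 from lists of 42 S and 52 G2M genes; thinning was seeded. Promoter windows came from RefSeq on GRCh38.p14. Named genes are the 10 subunits, BRD8, DUSP6, MYC and the 3 nearest genes of MBTD1 and EPC2. Up to 4 per list with the greatest ratio the same way in both contrasts of a drug were named too. The list and marker genes H2AFZ, H2AFV, KAT6B, SRCAP, MLLT3, CDH1, ESR1, COL1A1, VWF and LYZ and the neighbour UTP18 were named after their values were seen. The subunits and lists were chosen with earlier results of these data known. Other scalings, cell filters and thresholds were tried.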

Additional observations from a re-analysis of the deposited data

How the results depend on the processing

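Over 9 other scalings and cell filters no called subunit changed sign. MBTD1 stayed between 1.12 and 1.31 (log2) for neratinib against DMSO and between 1.20 and 1.39 for both drugs against fulvestrant, EPC2 between 0.43 and 0.66 and between 0.51 and 0.72. The lower calls depended on the scaling: MRGBP ran from -0.45 to -0.19 and from -0.50 to -0.24, and EP400 from -0.34 to -0.07 and from -0.35 to -0.11. YEATS4, not called, ran from 0.04 to 0.32, just short of the threshold, and from -0.03 to 0.18. For neratinib against DMSO, 0 subunits were past the lower threshold with median-of-ratios scaling, with CPM over genes that are not mitochondrial, in cells with under 20% mitochondrial UMIs, or with that filter and median-of-ratios scaling together, a combination added after seeing the data. Of all genes, 19.2%, 25.2%, 28.6% and 18.2% were lower in these settings, in that order. For both drugs against fulvestrant, 0 subunits were lower with median-of-ratios scaling, with or without that filter, and 2 without cells above the 99th percentile of UMIs or with equal weight to the phases. Of all genes, 18.2% were lower with the filter and 19.3% without it, and 31.8% and 32.1% in the other settings. For both drugs against DMSO, 0 subunits were lower with median-of-ratios scaling, with or without that filter, and 2 with equal weight to the phases. Of all genes, 19.9% were lower with the filter, 20.8% without it and 33.6% with equal weight. With median-of-ratios scaling the higher count was 3 of 10 for both drugs against fulvestrant and against DMSO, EPC1 being added, and 2 of 10 for neratinib against DMSO. Of all genes, 17.6%, 18.8% and 17.1% were higher with this scaling in those contrasts. The higher count of subunits was also 3, in the contrast of both drugs with DMSO, with CPM over genes that are not mitochondrial and with the filter alone. Of all genes, 14.5% and 12.5% were higher there. At 1.5-fold, 1 subunit, MBTD1, was higher and 0 lower in these 3 contrasts, and with a mean of at least 20 CPM 1 was higher in each. The shares of all genes under these settings are not given here, so these counts are not set against them. Median-of-ratios scaling gave median log2 ratios of 0.20, 0.10 and 0.13 in the order above, and 0.18, 0.16 and 0.18 with the filter. CPM over genes that are not mitochondrial gave 0.12 for neratinib and 0.063 for both drugs against DMSO, and the filter alone gave 0.052 for both drugs against fulvestrant and 0.078 against DMSO. The medians of all genes were -0.09, -0.08, -0.12 and -0.11 in that order. The cause was not tested. No paired analysis was possible because each group was 1 library.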
